A study of Mus musculus with 84 samples.

Results

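The genes described here encode the proteins of the cytosolic ribosome. They were chosen by name: gene symbols that begin with Rpl, Rps or Rplp and a number, together with Rpsa and Fau, without pseudogene symbols and without the kinases whose names share the prefix. Of 55471 genes in the count tables, 94 had such a symbol, and 80 of these had at least 20 reads summed over the 3 bulk libraries. Of the 80, 46 are named for the large subunit and 34 for the small subunit. Rps19bp1, a binding protein of RPS19, and Rpl7l1, a relative of RPL7, match by name and are not classical ribosomal proteins. Rpl37rt and Rps3a3 are not protein-coding genes in the GENCODE M21 annotation.

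The libraries come from MMC9s, mucosal mast cells that make IL-9, from small intestines of ovalbumin-allergic BALB/c mice. The 3 bulk libraries hold 1 genotype each: IL4RaY709F, a gain-of-function mutant of the IL-4 receptor alpha chain; IL4Ra-/-, a loss-of-function mutant of the same chain; and WT. In all 3, bone marrow progenitors with that genotype went into WT recipients already sensitized to ovalbumin. The recipients then had 7 oral ovalbumin challenges, 3 a week, and their own tissue was WT in every group. Each library is 1 pool of RNA from 12 to 20 biological replicates, and the difference between genotypes therefore has no replicate check and no p-value. The single-cell data are 81 WT MMC9s of mice sensitized with ovalbumin and alum and challenged orally. They were gated as ST2+ and c-Kit+ cells, low for β7-integrin and high for IL-4GFP, that lacked IL-17RB2 and lineage markers. No animal is named for any cell, and all cells were taken as 1 sample. The sources used here give neither the gate of the bulk sort nor the ages of the mice.

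A cytosolic ribosome has a small subunit, which reads the mRNA, and a large subunit, which joins amino acids, and its proteins are needed in near-equal numbers. Mouse mRNAs for these proteins typically begin with a 5′ terminal oligopyrimidine tract, a run of C and T bases at the transcription start, through which mTOR signalling sets how much of them is translated. In mast cells, as in other cells, the demand for ribosomes follows growth and the output of secreted proteins.

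Windows around the start of transcription hold a run of C and T bases in some of these genes and not in others. They run from 10 bases before to 19 bases after the first transcribed base in RefSeq on GRCm38.p6, 5′ to 3′ on the gene's strand, and capitals mark runs of at least 6 C or T bases. A marked run can lie anywhere in the window, and those of Rplp0 and Rpl39 begin only after the first transcribed base. The first 4 genes shown are those with an entry among the 5 that were at least 2-fold lower in the IL4Ra-/- library than in WT. Rpl26 was the 1 gene at least 2-fold higher in IL4RaY709F than in WT. The other 5 cover the stalk of the large subunit (Rplp0, Rplp2), a small-subunit protein that also acts as a laminin receptor (Rpsa), the target of S6 kinase (Rps6) and the shortest ribosomal protein (Rpl41).
Fau, chr19:6057937-6057966, plus strand: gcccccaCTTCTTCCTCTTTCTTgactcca
Rpl35a, chr16:33056472-33056501, plus strand: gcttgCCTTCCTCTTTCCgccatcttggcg
Rpl39, chrX:37085203-37085232, minus strand: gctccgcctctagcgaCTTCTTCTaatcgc
Rps9, chr7:3704031-3704060, plus strand: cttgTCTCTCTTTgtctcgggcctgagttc
Rpl26, chr11:68901556-68901585, plus strand: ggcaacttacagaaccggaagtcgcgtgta
Rplp0, chr5:115559457-115559486, plus strand: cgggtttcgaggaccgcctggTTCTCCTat
Rplp2, chr7:141447641-141447670, plus strand: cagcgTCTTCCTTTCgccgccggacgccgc
Rpsa, chr9:120127756-120127785, plus strand: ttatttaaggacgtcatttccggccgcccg
Rps6, chr4:86857348-86857377, minus strand: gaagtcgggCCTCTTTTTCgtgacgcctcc
Rpl41, chr10:128549149-128549178, minus strand: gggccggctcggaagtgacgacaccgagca

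RefSeq start windows were matched by symbol for 61 of the 80 genes, and for a gene with several starts the one with the longest run was taken. A run of at least 8 C or T bases lay in the window of 24 of the 61 (39.3%), against 13.01% of 27025 genes with a window and 13.8% of the 7876 other genes that had at least 20 bulk reads. In the 300-base promoters the letters CCGGAA, on either strand, occurred in 31 of 61 (50.8%), against 15.1% of all 27025 genes and 30.6% of the 7876. The letters GGGCGG, on either strand, occurred in 39 of 61 (63.9%), against 35.4% of all genes and 64.5% of the 7876. The pyrimidine run and CCGGAA were therefore more common than in both sets, and GGGCGG was no more common than in the other genes read in these libraries. Without a run in its window were Rpl26, Rpsa and Rpl41, which says only that these letters are absent from this window of the annotated start. Rplp1 and Rpl21 had no RefSeq window, and their genes lie at chr9:61913284-61914542 on the minus strand and chr5:146832890-146837032 on the plus strand (GRCm38).

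Gene reads came to 2521791 in the IL4RaY709F library, 2330628 in the IL4Ra-/- library and 2299793 in WT. Levels of a gene across the bulk libraries are given as scaled CPM, reads brought to a common total and corrected with TMM factors, which set the bulk of genes equal between libraries. Il4ra itself had 787 scaled CPM in IL4RaY709F, 138 in IL4Ra-/- and 353 in WT, so the IL4Ra-/- library was lowest but not at 0, and gene counts show neither the gain-of-function allele nor which exons the reads came from. The 10 mast cell markers, none at 0 in any library, summed to 82651 scaled CPM in IL4RaY709F, 55439 in IL4Ra-/- and 57890 in WT. The 9 B or plasma cell markers summed to 3025 in IL4RaY709F, 13378 in IL4Ra-/- and 6571 in WT. The 8 macrophage markers summed to 69.2, 433 and 135 in IL4RaY709F, IL4Ra-/- and WT. The 7 markers of dividing cells summed to 292, 536 and 294 in the same order, nearly equal in IL4RaY709F and WT. Dendritic cell markers summed to 132, 371 and 154, epithelial markers to 29.7, 84.5 and 25.8, and T cell markers to 198, 277 and 158, with IL4Ra-/- highest in each. Basophil markers summed to 405, 189 and 206, ILC2 markers to 74.8, 42.1 and 54.7, and stromal or endothelial markers to 375, 211 and 224, with IL4RaY709F highest in each. Of the T cell, ILC2 and stromal or endothelial lists, 2 genes each had at least 20 bulk reads. Only 1 of each 2 reached 50 reads in a library, so these sums rest on few genes. In IL4RaY709F over IL4Ra-/- the 2 ILC2 genes went opposite ways, as did the 2 stromal or endothelial genes. Of the 3 basophil genes 1 was lower there. Of the listed B or plasma cell markers 1 was at 0 in WT, of the 10 epithelial markers 2 were at 0 in WT, and of the 7 T cell markers 3 were at 0 in IL4RaY709F and 2 in WT. Of the 7 dendritic cell markers 1 was at 0 in IL4RaY709F, 1 in IL4Ra-/- and 2 in WT, of the ILC2 markers 1 in IL4RaY709F and of the stromal or endothelial markers 1 in WT, and no listed macrophage or dividing-cell marker was at 0. These markers of other cells move with the genotypes, and their part in the results below was not tested.

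The ribosomal protein genes took 2.71% of gene reads in the IL4RaY709F library (95% exact binomial interval 2.69 to 2.73), 1.89% in the IL4Ra-/- library (1.87 to 1.90) and 2.46% in WT (2.44 to 2.48). These intervals, like all those below, cover counting error only. The values are shares of a library, so a lower level per cell cannot be told apart from another mix of cells in a pool. The median of the 80 genes was 301.2 scaled CPM in IL4RaY709F, 179 in IL4Ra-/- and 262 in WT. In 71 of the 80 genes the level was lowest in IL4Ra-/-, intermediate in WT and highest in IL4RaY709F, an order that 23.2% of the 10479 genes with at least 20 reads showed. IL4Ra-/- was the lowest library for 75 of the 80, beside 39.7% of all genes, and IL4RaY709F was the highest for 76, beside 35.5%. Scaled by total reads, the order held for 61 of the 80 genes and for 13.6% of all genes.

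**Figure D1:**
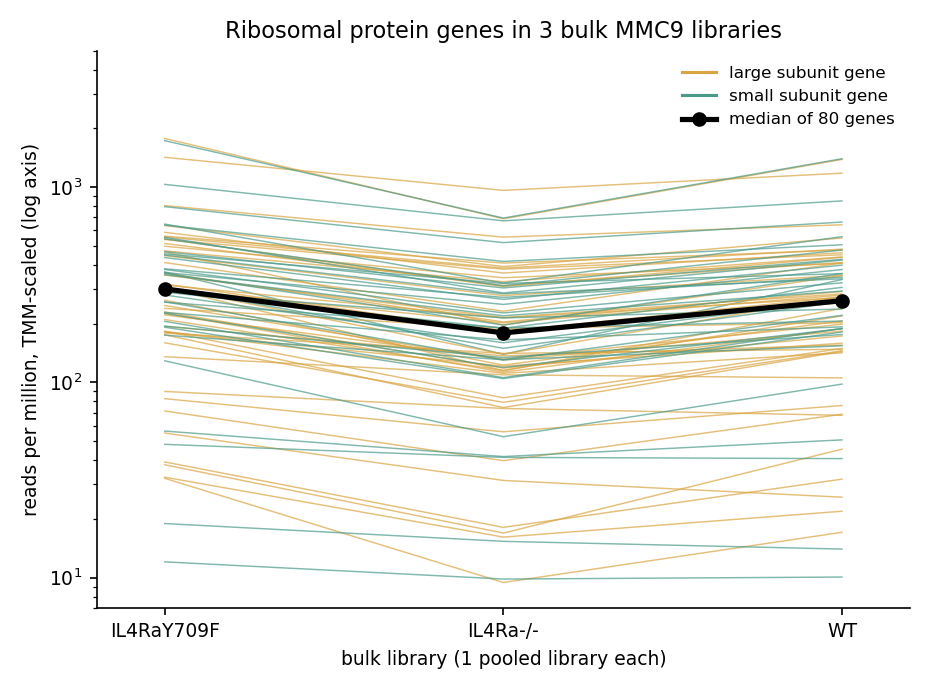
TMM-scaled CPM (log axis) of each of the 80 genes in the IL4RaY709F, IL4Ra-/- and WT bulk libraries, 1 line per gene, coloured by subunit, with the median in black. The median lies at 301.2 in IL4RaY709F, 179 in IL4Ra-/- and 262 in WT, and most lines dip at IL4Ra-/- together.

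Against WT, the IL4RaY709F library held slightly more of most ribosomal protein mRNAs. The log2 ratio was above 0 for 76 of the 80 genes (70 when scaled by total reads), where 50.3% of all genes were above and 49.7% below, with a median of 0.26 (quartiles 0.16 and 0.33) beside 0.00 over all genes. Summed over the 80 genes, IL4RaY709F was 1.19-fold above WT (counting interval 1.18 to 1.20), a log2 ratio of 0.25. Summed over all genes with at least 20 reads, IL4RaY709F was 1.08-fold above WT, a log2 ratio of 0.11. Ratios of other genes of like principal transcript length were also subtracted, for the 72 genes with an annotated one. The median was then 0.09, the summed log2 ratio 0.088 and 0 genes passed the size rule defined below. Scaled by total reads the median was 0.15, the summed log2 ratio 0.14 and again 0 genes passed. The counting interval lay above 0 for 55 of the 80 and below 0 for none, where 11.9% and 9.68% of all genes had such intervals. Past the size rule, which asks for 50 reads in the larger library, a 2-fold difference and an interval that excludes no difference, 1 gene was higher and 0 were lower. Among all genes 1.68% were higher and 0.771% lower by that rule (100 and 46 genes of 5964, or 71 and 69 when scaled by total reads). At a 1.5-fold limit 2 of the 80 were higher and 0 lower, beside 6.15% and 3.55% of all genes.

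The 1 gene was Rpl26, whose protein sits near the exit tunnel of the large subunit and also binds p53 mRNA in human cells. Rpl26 had 55.03 scaled CPM in IL4RaY709F, 31.5 in IL4Ra-/- and 25.8 in WT. IL4RaY709F exceeded WT by 1.09 on the log2 scale (interval 0.64 to 1.56), and IL4Ra-/- over WT, at 0.29 (interval -0.22 to 0.80), lay within counting error. It rests on 128 reads in IL4RaY709F and 59 in WT, and scaled by total reads it falls short of 2-fold. Rpl21 followed with a log2 ratio of 0.92 and Rpl13a with 0.58, from 75 against 39 reads and 76 against 50 reads in IL4RaY709F and WT. Rpl22 (0.44) and Rpl37a (0.41) were next, from 576 against 418 and 534 against 395 reads. Among the lowest were Rpl35a (-0.27), Rps13 (-0.08), Rpl28 (-0.06) and Rps29 (0.00), and the interval of each of these held 0.

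Against WT, the IL4Ra-/- library held less of nearly all ribosomal protein mRNAs, and the difference was larger than that between IL4RaY709F and WT. The log2 ratio was below 0 for 75 of the 80 genes (71 when scaled by total reads), where 52.3% of all genes were, with a median of -0.49 (quartiles -0.79 and -0.28) beside -0.03 over all genes. The summed log2 ratio was -0.52 (interval -0.53 to -0.50), beside -0.14 for the sum over all genes with at least 20 reads. The interval lay below 0 for 67 of the 80 and above 0 for none, where 18.1% and 11.5% of all genes had such intervals. By the size rule 5 genes were lower and 0 higher, beside 1.3% lower and 2.43% higher among all genes (81 and 152 of 6246, or 45 and 207 when scaled by total reads). At a 1.5-fold limit 30 of the 80 were lower and 0 higher, beside 8.85% and 6.52% of all genes.

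The 5 genes are spread over both subunits. Rpl35a, a large-subunit protein whose human gene is mutated in Diamond-Blackfan anaemia, had 37.8 scaled CPM in IL4RaY709F, 16.9 in IL4Ra-/- and 45.5 in WT. It was 2.69-fold lower in IL4Ra-/- than in WT, from 43 against 104 reads. Fau, which makes the small-subunit protein eS30 fused to a ubiquitin-like protein, had 368 in IL4RaY709F, 139 in IL4Ra-/- and 336 in WT. It was 2.42-fold lower in IL4Ra-/- than in WT (interval 2.13 to 2.75), and close to WT in IL4RaY709F (log2 ratio 0.13, interval -0.01 to 0.27). Rpl39, a short protein of the exit tunnel, had 307 in IL4RaY709F, 115 in IL4Ra-/- and 239 in WT, and was 2.08-fold lower in IL4Ra-/- than in WT. Rplp1, of the large-subunit stalk, had 1778 in IL4RaY709F, 689 in IL4Ra-/- and 1388 in WT. Rps9, a small-subunit protein near the mRNA entry channel, had 1732 in IL4RaY709F, 695 in IL4Ra-/- and 1399 in WT. Rplp1 and Rps9 were both 2.01-fold lower in IL4Ra-/- than in WT, with 1752 and 1767 reads in IL4Ra-/-. Fau and Rpl35a stayed past 2-fold when libraries were scaled by total reads, and Rpl39, Rplp1 and Rps9 did not.

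At the other end, Rpl26 (0.29), Rpl7l1 (0.12), Rpl30 (0.05), Rps27l (0.02) and Rpl35 (-0.07) had the highest IL4Ra-/- over WT log2 ratios among the genes with 50 reads, and all 5 intervals held 0. Rpl30, a large-subunit protein, had 135 scaled CPM in IL4RaY709F, 109 in IL4Ra-/- and 105 in WT. For abundant genes this spread was wider than counting error: Rplp1 at -1.01 (interval -1.09 to -0.93) and Rpl4 at -0.29 (interval -0.37 to -0.21) do not overlap.

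**Figure D2:**
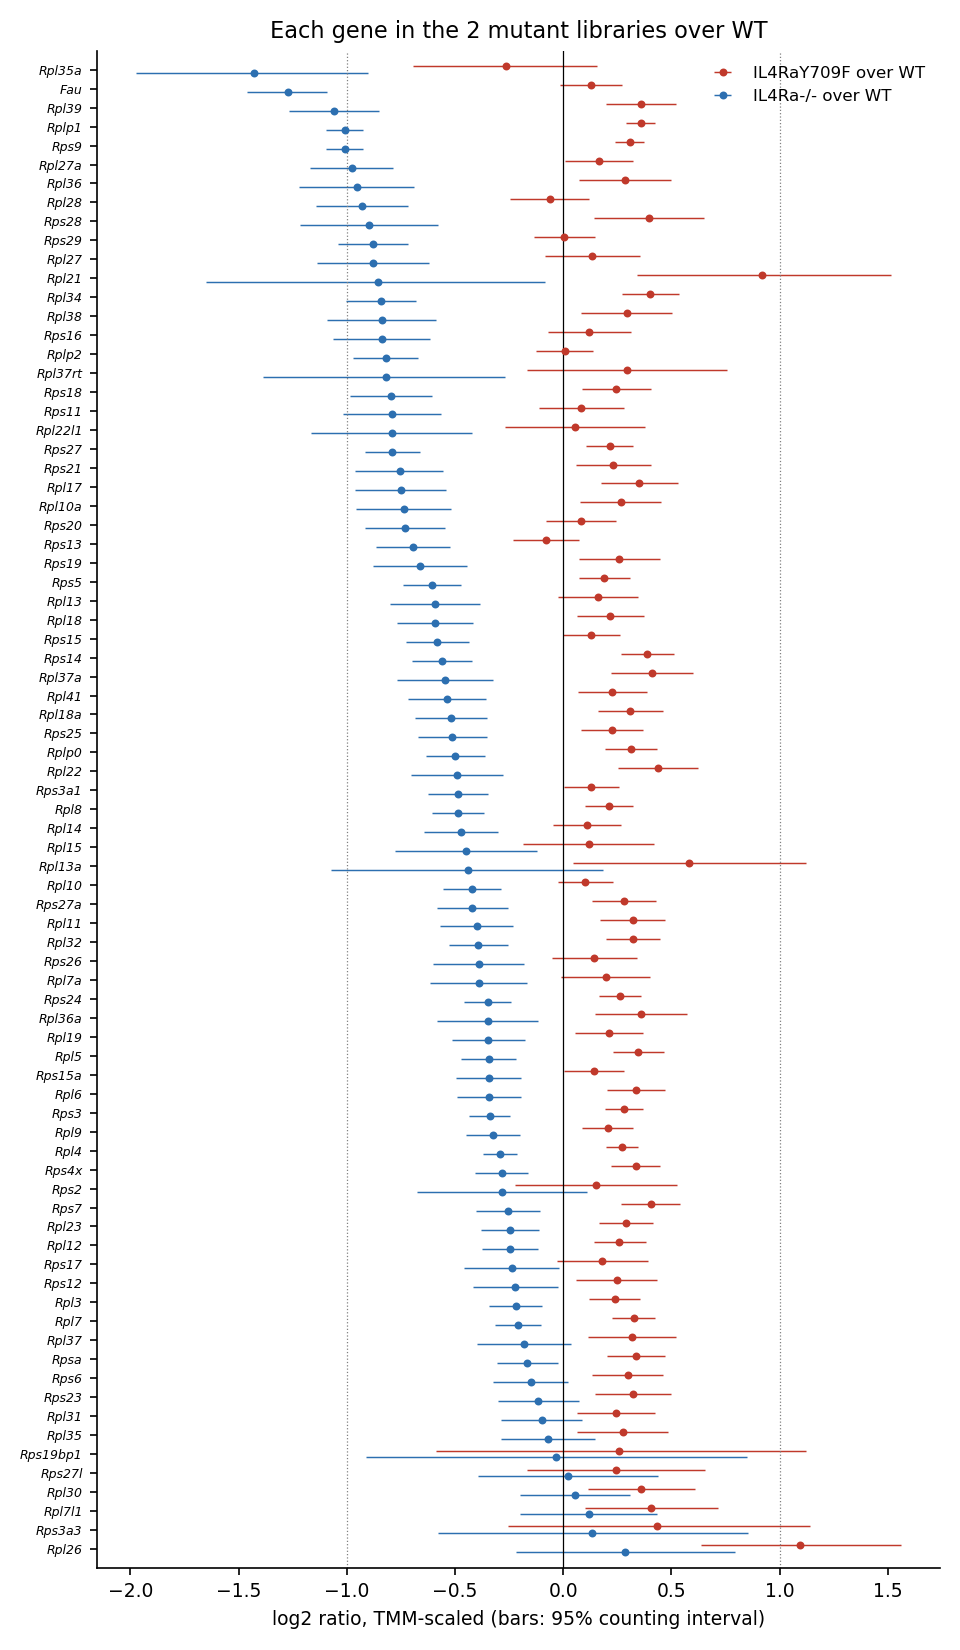
Log2 ratios (x axis) of 79 of the 80 genes, ordered by the IL4Ra-/- over WT ratio, for IL4RaY709F over WT and IL4Ra-/- over WT; bars are 95% counting intervals and dotted lines mark 2-fold. The IL4RaY709F points gather near 0.26 and the IL4Ra-/- points spread between -1.43 and 0.29.

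Between the mutants, all 80 genes had higher scaled levels in IL4RaY709F than in IL4Ra-/-, where 52% of all genes did (79 of the 80 when scaled by total reads). The median log2 ratio was 0.71 (quartiles 0.54 and 0.96), beside 0.02 over all genes, and the interval lay above 0 for 76 of the 80, where 20.7% of all genes had one. By the size rule 18 genes were higher and 0 lower, beside 4.62% higher and 3.5% lower among all genes (292 and 221 of 6319, or 145 and 359 when scaled by total reads). With the trend over exon length removed 9 of the 80 were higher. With that over principal transcript length removed, 5 of the 72 genes with an annotated principal transcript were higher, at a median of 0.44. With either trend removed, the share of all genes past the rule was not counted, so these counts have no background beside them. At a 1.5-fold limit 53 of the 80 were higher and 0 lower, beside 14.6% and 8.36% of all genes. The 18 were Rpl21, Rpl39, Fau, Rplp1, Rps9, Rps28, Rpl34, Rpl36, Rpl35a, Rpl27a, Rpl38, Rpl37rt, Rpl17, Rps18, Rpl13a, Rpl27, Rps27 and Rpl10a. The largest was Rpl21, a large-subunit protein, at 32.2 scaled CPM in IL4RaY709F, 9.44 in IL4Ra-/- and 17.1 in WT. Its IL4RaY709F over IL4Ra-/- ratio was 3.42-fold, from 75 and 24 reads. Rps28, a small-subunit protein whose principal transcript of 271 bases is the shortest of the set, had 129 in IL4RaY709F, 52.7 in IL4Ra-/- and 98.0 in WT, a log2 ratio of 1.29 between the mutants. Rpl34 had 466 in IL4RaY709F, 197 in IL4Ra-/- and 352 in WT, a log2 ratio of 1.24. Scaled by total reads, 7 genes stayed past the rule, Rpl21, Rpl39, Fau, Rplp1, Rps9, Rps28 and Rpl34. The lowest ratios were those of Rps27l (0.22), Rpl7l1 (0.29), Rpl30 (0.31), Rpl31 (0.34) and Rpl35 (0.35). This comparison shares its libraries with the 2 comparisons against WT and is not independent of them.

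By subunit the 3 comparisons ran alike. In IL4RaY709F over WT the median log2 ratio was 0.29 for the 46 large-subunit genes and 0.24 for the 34 small-subunit genes. In IL4Ra-/- over WT it was -0.48 and -0.50. In IL4RaY709F over IL4Ra-/- it was 0.76 and 0.64, with 13 and 5 genes past the size rule.

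The stalk proteins, which recruit the GTPases of translation, were Rplp0, Rplp1 and Rplp2. Rplp0, its base, had 543 scaled CPM in IL4RaY709F, 309 in IL4Ra-/- and 437 in WT. Rplp2, the partner of Rplp1, had 411 in IL4RaY709F, 232 in IL4Ra-/- and 409 in WT. All 3 were lowest in IL4Ra-/-, where the log2 ratio over WT was -0.50 for Rplp0, -0.82 for Rplp2 and -1.01 for Rplp1, and no interval held 0. In IL4RaY709F, Rplp2 differed from WT by less than counting error (0.01, interval -0.12 to 0.14), while Rplp0 (0.31) and Rplp1 (0.36) had intervals above 0.

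Of the proteins made as fusions, Rps27a carries ubiquitin itself. It had 356 scaled CPM in IL4RaY709F, 219 in IL4Ra-/- and 294 in WT, a log2 ratio in IL4Ra-/- over WT of -0.42 (interval -0.58 to -0.26), above that of Fau at -1.27 (interval -1.46 to -1.09).

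Other single proteins lay between these. Rps6, the phosphorylated target of S6 kinase, had 292 scaled CPM in IL4RaY709F, 214 in IL4Ra-/- and 238 in WT, and the interval of its IL4Ra-/- over WT log2 ratio held 0 (-0.15, interval -0.33 to 0.02). Rpsa had 455 in IL4RaY709F, 321 in IL4Ra-/- and 361 in WT. Rpl41 had 300 in IL4RaY709F, 177 in IL4Ra-/- and 256 in WT, a log2 ratio of -0.54 in IL4Ra-/- over WT. Rps6 and Rpsa thus stood nearer to WT than the median gene in the IL4Ra-/- library, and Rpl41 near it.

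Several ribosomal proteins have a paralog. Rpl22l1, which can replace RPL22, had 71.4 scaled CPM in IL4RaY709F, 39.7 in IL4Ra-/- and 68.7 in WT. Rpl22 had 248 in IL4RaY709F, 130 in IL4Ra-/- and 183 in WT. Per kilobase of exon, Rpl22 stood 2.37-fold above Rpl22l1 in IL4RaY709F, 2.24-fold in IL4Ra-/- and 1.82-fold in WT. Rps27l, a p53 target, had 48.2 in IL4RaY709F, 41.3 in IL4Ra-/- and 40.7 in WT, with both mutants within counting error of WT. Rps27 had 647 in IL4RaY709F, 323 in IL4Ra-/- and 558 in WT, so that its IL4Ra-/- over WT log2 ratio of -0.79 (interval -0.92 to -0.66) lay below that of Rps27l (interval -0.40 to 0.44). Per kilobase the ratio of Rps27 to Rps27l was 10.5 in IL4RaY709F, 6.12 in IL4Ra-/- and 10.7 in WT. Rpl7 had 805 in IL4RaY709F, 555 in IL4Ra-/- and 642 in WT. Rpl3 (1306, 1039 and 1088 reads), Rpl39 (714, 292 and 547), Rpl10 (1097, 834 and 1004), Rpl36a (423, 283 and 324) and Rps4x (1487, 1059 and 1159) are given as reads in IL4RaY709F, IL4Ra-/- and WT. Other paralogs, among them Rpl3l, known from muscle, and Rpl10l and Rpl39l, known from testis, were at or near 0. Rpl3l had 0 reads in all 3 bulk libraries, Rpl10l 1, 1 and 2, Rpl39l 2, 5 and 2, Rpl36al 7, 2 and 8, and Rps4l 3, 1 and 2 in IL4RaY709F, IL4Ra-/- and WT.

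Levels of different genes were compared per kilobase of exon in WT, as RPKM. The highest was Rplp1 at 2763, followed by Rps15 (629), Rpl4 (584), Rps9 (551) and Rps27 (532). Rps15, Rps9 and Rps27 belong to the small subunit and Rpl4 to the large one. The lowest were Rpl21 (4.99), Rps19bp1 (9.23), Rpl13a (10.3), Rpl35a (12.8) and Rps3a3 (17.5), beside a median of 121. Rplp1 was the highest in IL4RaY709F (3285) and in IL4Ra-/- (1506) too, and Rpl21 the lowest in both (8.75 and 3.03). The exon length takes in rare long isoforms, which lowers such values: Rpl35a has 3526 exon bases and a principal transcript of 491. These levels also depend on how reads from near-identical copies were assigned, which is not stated. Pseudogene symbols of this family (299 genes) took 2.35 reads for each 100 reads of the 80 genes in IL4RaY709F, 1.89 in IL4Ra-/- and 1.99 in WT. Low values such as those of Rpl21 and Rpl13a, which have many such copies, are therefore uncertain. Exons of another annotated gene, mostly a snoRNA, overlap 35 of the 80.

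Ribosomal protein transcripts are short, and ratios in these libraries ran with length. The principal transcript had a median of 756 bases for the 72 genes with an annotated one, against 2683 bases for 7157 other protein-coding genes. Across the 72, Spearman's rho of the log2 ratio with that length was 0.06 in IL4RaY709F over WT, 0.41 in IL4Ra-/- over WT and -0.36 in IL4RaY709F over IL4Ra-/-. Across the other protein-coding genes it was -0.14, 0.08 and -0.17. With exon length in its place, rho was 0.05, 0.13 and -0.11 across the 80 genes. Across the other protein-coding genes rho with exon length was -0.15, 0.10 and -0.20. These are descriptions across genes of the same libraries. In transcripts under 600 bases, 25 ribosomal protein genes had a median of -0.69 in IL4Ra-/- over WT and 126 other genes one of -0.15. From 600 to under 1000 bases the medians were -0.45 for 31 ribosomal protein genes and -0.15 for 446 others, and from 1000 to under 2000 bases -0.34 for 14 and -0.07 for 1772. The ribosomal protein genes had the lower median in each of these classes in IL4Ra-/- over WT. For IL4RaY709F over WT the 2 sets were close in transcripts under 600 bases (0.25 and 0.22) and from 600 to under 1000 bases (0.22 and 0.18), and further apart in those of 1000 to under 2000 bases (0.29 and 0.07).

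With the running median of other genes at the same principal transcript length subtracted, the median of the ribosomal protein genes was 0.09 in IL4RaY709F over WT, -0.39 in IL4Ra-/- over WT and 0.44 in IL4RaY709F over IL4Ra-/-. The running median itself, at the lengths of these 72 genes, had a median of 0.18, -0.15 and 0.30 in the same order. Of the 72 genes, 53, 5 and 70 then lay above 0. Classes of read number gave lower medians for the ribosomal protein genes in IL4Ra-/- over WT too. Among genes with 3000 or more reads, 15 ribosomal protein genes had a median of -0.35 and 371 other protein-coding genes one of -0.24, and among those with 1000 to under 3000 reads, 48 had -0.52 and 930 had -0.17. Among those with 200 to under 1000 reads, 13 had -0.79 and 3560 had -0.08. In classes of exon length and read number together the gap in IL4Ra-/- over WT was small in some. From 1000 to under 2000 bases with 1000 to under 3000 reads, 21 ribosomal protein genes had a median of -0.39 and 42 other genes one of -0.35, and from 2000 to under 4000 bases with 3000 or more reads both sets (7 and 105 genes) had -0.29. From 2000 to under 4000 bases with 1000 to under 3000 reads it was wider, at -0.54 for 16 and -0.19 for 191. In that class IL4RaY709F over WT had medians of 0.26 and 0.09, and IL4RaY709F over IL4Ra-/- 0.75 and 0.29. From 1000 to under 2000 bases with 1000 to under 3000 reads the medians were close: 0.27 and 0.25 in IL4RaY709F over WT, and 0.58 and 0.57 between the mutants. In IL4RaY709F over WT the ribosomal protein genes were lower from 1000 to under 2000 bases with 3000 or more reads (0.21 for 5 and 0.25 for 28).

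**Figure D3:**
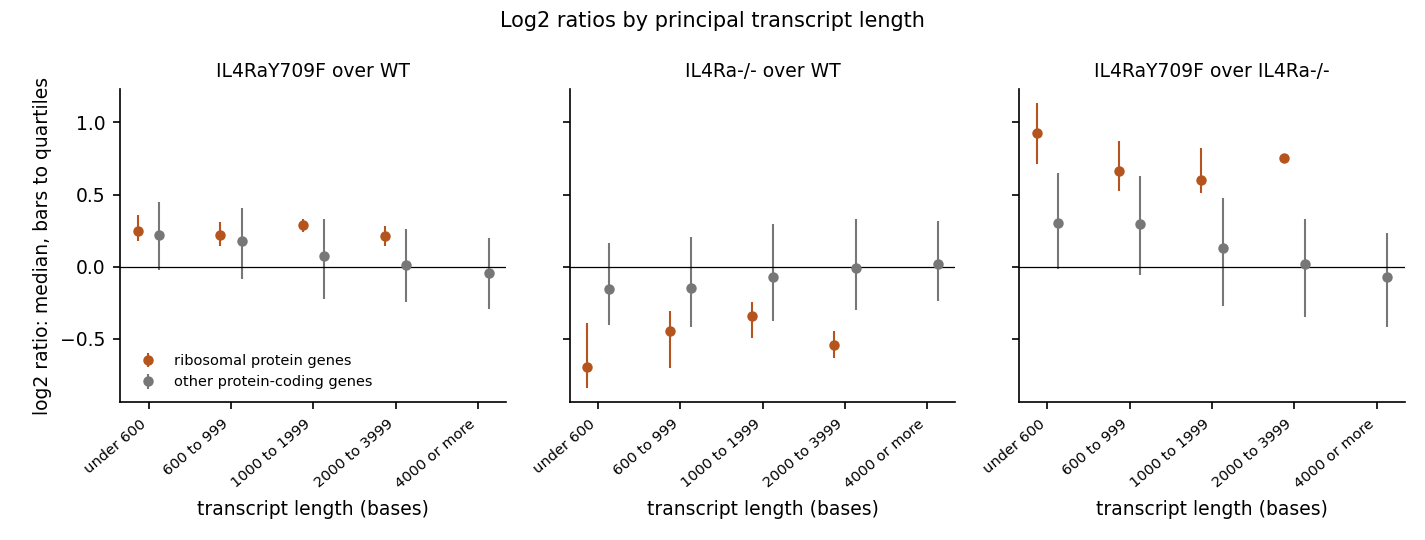
Median log2 ratio with bars to the quartiles (y axis) in 5 classes of principal transcript length in bases (x axis), for the ribosomal protein genes and the other protein-coding genes, in the 3 bulk comparisons. The ribosomal protein genes lie below the others in every class that holds them in IL4Ra-/- over WT, and close to them under 1000 bases in IL4RaY709F over WT.

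Ribosomal protein genes with a long pyrimidine run in the start window had a lower median in IL4Ra-/- over WT than those without. The median log2 ratio was -0.69 for the 24 ribosomal protein genes with a run of at least 8 bases and -0.35 for the 37 without one. For IL4RaY709F over WT the medians were 0.21 and 0.27. Their principal transcripts differed as well, with medians of 679 and 827 bases, and the part of length in this was not tested. Among other genes with at least 20 reads, those with such a run had a median of -0.04 in IL4Ra-/- over WT (n = 1083), and those without one -0.02 (n = 6793).

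Other genes of the translation machinery had smaller median ratios in IL4Ra-/- over WT. Of 8 elongation factor genes, none passed the size rule in any of the 3 comparisons, and their median log2 ratio was 0.26 in IL4RaY709F over WT, -0.33 in IL4Ra-/- over WT and 0.54 in IL4RaY709F over IL4Ra-/-. Eef2, the translocation factor, had 5064 reads in IL4Ra-/- and 6305 in WT, a log2 ratio of -0.47. The highest IL4Ra-/- over WT ratio of the list was that of Eef1e1, a protein of the tRNA synthetase complex, at 0.67 from 23 and 13 reads (interval -0.37 to 1.77). Eef1b2, an exchange factor of eEF1A, had 994 reads in IL4RaY709F and 618 in IL4Ra-/-, a log2 ratio of 0.81. Of 35 initiation factor genes none passed the rule either, and the medians were 0.12, -0.16 and 0.26 in the same order. Eif3f had the lowest IL4Ra-/- over WT ratio of these at -0.57, from 368 and 491 reads, and Eif2b1, of the exchange factor eIF2B, the highest at 0.69, from 54 and 30 reads. Of 18 measured mRNAs outside the family that are known to start with a pyrimidine tract, none passed the rule, with medians of 0.19, -0.34 and 0.56. Npm1, a nucleolar chaperone of this last list, stood out with 1132 reads in IL4RaY709F, 944 in IL4Ra-/- and 795 in WT, above WT in IL4RaY709F (0.48) and close to it in IL4Ra-/- (0.09, interval -0.04 to 0.23).

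Of 57 genes for rRNA synthesis and ribosome assembly, none passed the size rule in IL4RaY709F over WT, and the median was 0.15. In IL4Ra-/- over WT 1 was higher and 2 lower, with a median of -0.15. Dkc1, the pseudouridine synthase of rRNA, had 78 reads in IL4Ra-/- and 27 in WT (log2 ratio 1.38), Imp3, of the small-subunit processome, 29 and 68 (-1.38), and Taf1c, of the RNA polymerase I factor SL1, 23 and 54 (-1.39). In IL4RaY709F over IL4Ra-/- 5 were higher and none lower, with a median of 0.34: Imp3 (1.18), Eif6 (1.14), Rrp12 (1.14), Tsr1 (1.04) and Rrp9 (1.03), all with a role in maturing or exporting a subunit. Of 21 regulators in the mTOR pathway, Ddit4, an inhibitor of mTORC1, was lower in IL4RaY709F over WT, with 63 and 124 reads and a log2 ratio of -1.002. Myc, a driver of ribosome production, had 104 reads in IL4RaY709F, 38 in IL4Ra-/- and 58 in WT. It was the 1 gene of the list past the rule in IL4RaY709F over IL4Ra-/- (1.58, interval 1.03 to 2.16), and none of the 21 passed it in IL4Ra-/- over WT. The medians of this list were -0.11, -0.28 and 0.05. Its lowest IL4Ra-/- over WT ratio was that of Myc (-0.76, interval -1.39 to -0.15).

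Ribosomal proteins of mitochondria, encoded by other genes, had a median close to WT in the IL4Ra-/- library. For 77 measured genes the median log2 ratio was 0.22 in IL4RaY709F over WT, -0.02 in IL4Ra-/- over WT and 0.16 in IL4RaY709F over IL4Ra-/-. Mrpl54 was past the size rule in IL4RaY709F over WT (89 and 43 reads, 1.02), and Mrpl54 (1.11) and Mrpl12 (1.09) in IL4RaY709F over IL4Ra-/-. For 80 nuclear subunits of the respiratory chain the medians were 0.20, -0.22 and 0.45, with Ndufa6 lower in IL4Ra-/- over WT (85 and 171 reads, -1.16). In IL4RaY709F over IL4Ra-/- Cox7a2l (1.25), Ndufa6 (1.18), Cox8a (1.04) and Cox5b (1.04) were higher. The lowest IL4Ra-/- over WT ratio among mitochondrial ribosomal proteins was that of Mrpl14 (-0.97, from 17 and 30 reads), and the highest that of Mrps5 (1.35, from 34 and 12 reads). The differences between these lists and the ribosomal protein genes were not tested.

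In single WT MMC9s most of these genes were read in most cells. Of 81 cells, 80 had at least 500 detected genes and 10000 gene reads and were kept, with 163596 to 2210211 gene reads each. No doublet caller was run. Their summed reads held 2.21% from the 80 genes, against 2.46% in the WT bulk library. At 10 reads or more, 77 of the 80 genes were detected in at least 40 of the 80 cells, where 13.1% of the 10479 genes with at least 20 bulk reads were. A gene was detected in a median of 71 cells. Thinning each cell to 150000 reads left 62 of the 80 genes detected in at least 40 cells, beside 6.8% of the 10479. Without thinning, 3 genes were detected in fewer than 40 cells. They were Rpl13a, in 24 cells (30%, exact interval 20.3% to 41.3%), Rpl21, in 18 cells (22.5%, interval 13.9% to 33.2%), and Rps19bp1, in 7 cells (8.75%, interval 3.59% to 17.2%). The same 3 genes were among the 5 lowest per kilobase in WT bulk.

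The share of a cell's reads from the ribosomal protein genes varied widely. It ran from 0.185% in the lowest to 5.42% in the highest of the 80 cells, with a median of 2.05% and quartiles of 1.503% and 2.79%. Of the 9 cells under 1%, 7 had over 20% of their reads from mitochondrially encoded genes or under 0.5% from the 10 mast cell markers. The lowest, cell 37, had 36.2% mitochondrial and 0.0883% mast marker reads. Cell 79, at 0.443%, had 90.8% mitochondrial reads, and took 4.79% from the ribosomal protein genes among its other reads. Cell 46, at 0.535%, had 1864955 gene reads, 2.36% mitochondrial reads and 0.0186% mast marker reads, so that the mast cell markers were nearly absent there. In all 12 cells met either limit, and the highest cell, cell 42 at 5.42% with 27.2% mitochondrial reads, was 1 of them. Without the 12, the share in the other 68 cells ran from 0.936% to 4.10%, a 4.38-fold range, around a median of 2.11%.

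Large- and small-subunit genes moved together from cell to cell. The large-subunit share had a median of 1.16% and the small-subunit share one of 0.810%, with a Spearman's rho of 0.92 over 80 cells and 0.90 over the 68. Both shares are of the same cell's total, which links them. Between single genes the link was weaker: over pairs of the 77 genes detected in at least 40 cells the median rho was 0.35 in 80 cells and 0.27 in the 68. With the number of genes detected in a cell, the summed share had a rho of 0.39, and with the summed level of the dividing-cell markers one of 0.17, both over 80 cells. These values are descriptions of 1 sample.

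**Figure D4:**
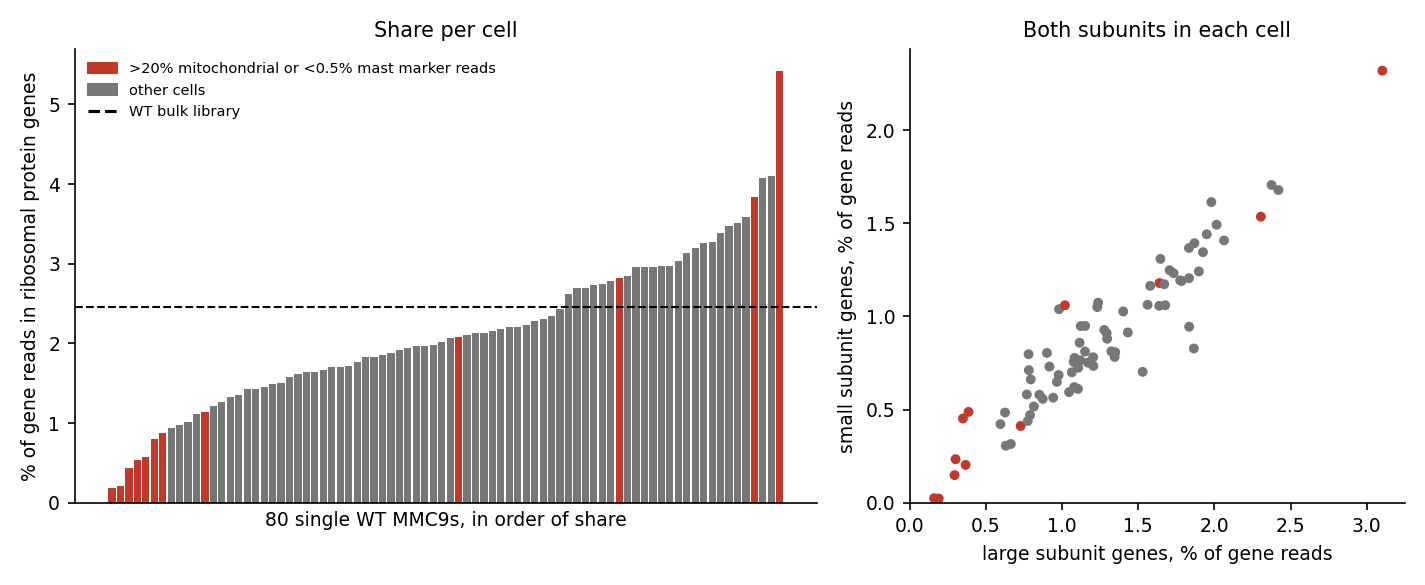
Left, the share of gene reads from the ribosomal protein genes in each of 80 single WT MMC9s, in order of share, with the WT bulk library at 2.46% as a dashed line; right, the small-subunit share against the large-subunit share in the same cells. The 12 cells with over 20% mitochondrial or under 0.5% mast marker reads, in red, hold 7 of the 9 shares under 1% and the highest one.

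Per gene, the ribosomal protein mRNAs had lower coefficients of variation between cells than other mRNAs of the same mean level. The other genes needed no minimum of bulk reads here, unlike the ribosomal protein genes. The part of this in the difference was not tested. At a mean of 100 to 200 CPM, the coefficient of variation over the 80 cells had a median of 0.972 for 28 ribosomal protein genes and 2.08 for 815 other protein-coding genes. At 400 to 800 CPM it was 0.779 for 16 and 1.19 for 181. In the 68 cells the first pair of medians was 0.714 and 1.95. The steadiest genes were Rps9 (1042 ± 587 CPM, SD over 80 cells, coefficient of variation 0.563), Rps29 (0.616), Rpl32 (0.652), Rps19 (0.656) and Rpl37 (0.672). In the 68 cells the lowest were Rps9 (0.418), Rps27 (0.489), Rps29 (0.494), Rpl32 (0.513) and Rps3 (0.516). Among the most variable of the 77 were Rpl22l1 (1.67), Rpl22 (1.64), Rps27l (1.57) and Rpl7l1 (1.54). For Rpl22 this rested on the cells set apart above: in the 68 cells its coefficient was 0.946, while those of Rpl22l1 (1.54), Rps27l (1.43) and Rpl7l1 (1.40) stayed above 1. Rpl22l1, Rps27l and Rpl7l1 are all paralogs of a classical ribosomal protein.

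**Figure D5:**
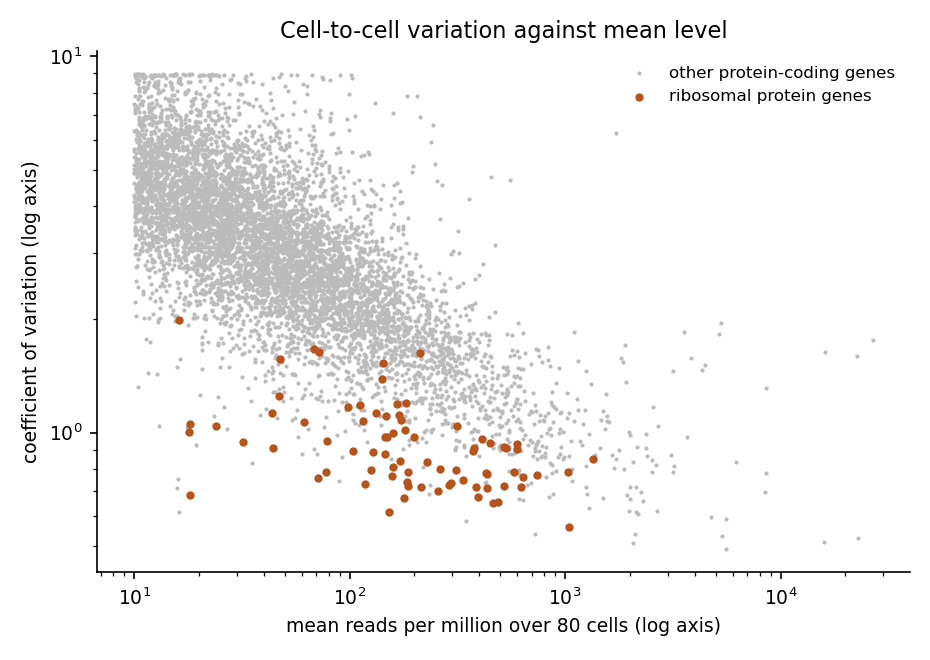
Coefficient of variation over 80 single WT MMC9s (y axis, log) against mean CPM (x axis, log) for the ribosomal protein genes and the other protein-coding genes with a mean of at least 10. The other genes needed no minimum of bulk reads. Most ribosomal protein genes lie below other genes of the same mean, with Rps9 lowest at 0.563.

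The named genes had these levels in the cells. Rplp1 averaged 523 ± 478 CPM (SD over 80 cells) and was detected in 76 cells, and Rps6 averaged 373 ± 334 and was also detected in 76. Rplp0 averaged 432 ± 308 and Rplp2 198.9 ± 194, in 71 and 75 cells. Fau averaged 187 ± 135 in 72 cells, Rps27a 116 ± 124 in 67 cells, Rpsa 600 ± 544 in 70 cells and Rpl41 518 ± 375 in 75 cells. These SDs describe cells of 1 sample and are no error between animals.

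Summed over the 80 cells and set against the WT bulk library, scaled by total reads, the median log2 ratio of the 80 genes was -0.30, beside -0.28 over all genes. Against genes of like length the set was lower, by an amount that depended on the length used. With the exon length trend removed the median was -0.40. With the principal transcript trend removed the median of the 72 genes with such a transcript was -0.90. By exon length, from 600 to under 1000 bases, 10 ribosomal protein genes had a median of -0.30 and 132 other protein-coding genes one of 0.69. The gap was smaller from 2000 to under 4000 bases (-0.26 for 29 and -0.04 for 2765) and at 4000 bases or more (-0.63 for 6 and -0.42 for 5767). TMM scaling, which moves all genes alike, gave medians of 0.10 for the 80 genes and 0.12 over all genes. The cells and the bulk library differ in mouse model and in library preparation, and these cannot be told apart. Reads of pseudogene symbols differed as well, at 5.59 in the cells and 1.99 in WT bulk for each 100 reads of the 80 genes. The part of this in the ratios was not tested. Ratios spread widely. By the size rule 7 of the 80 genes were higher and 14 lower in the cells. Among 6831 genes 23.3% were higher and 29.1% lower. Lowest in the cells were Rps21 (-2.34), Rpl12 (-2.17), Rpl17 (-2.12), Rps12 (-2.03) and Rps24 (-1.79). Highest were Rps19 (1.45), Rpl15 (1.36), Rpl7l1 (1.25), Rpl5 (1.23) and Rpl41 (1.08). Rps19, a small-subunit protein whose human gene is mutated in Diamond-Blackfan anaemia, was 2.73-fold higher in the summed cells than in WT bulk (log2 interval 1.31 to 1.59). Rps21, also of the small subunit, was 5.06-fold lower in the summed cells than in WT bulk (log2 interval -2.47 to -2.20). Mitochondrial ribosomal proteins had a median of 0.81 in the same ratio.

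The 14 matching symbols under 20 bulk reads were not alike in the cells. Of these, 6 were detected in at least 40 of the 80 cells at 10 reads: Rpl23a in 68 cells, Rps3a2 in 67, Rpl24 in 66, Rps27rt in 63, Rpl6l in 47 and Rpl36al in 42. Rpl23a and Rpl24 encode core large-subunit proteins, yet had 2, 1 and 0 reads and 6, 3 and 5 reads in the IL4RaY709F, IL4Ra-/- and WT bulk libraries. Rps10 and Rpl29, named after their values were seen, also encode core proteins, and few or no cells held 10 of their reads. Rps10 had 6, 2 and 8 bulk reads in the same order and was detected in 5 cells. Rpl29 had 0, 1 and 7 bulk reads and reached 10 reads in no cell, though 23 cells held at least 1 of its reads. Rpl10l and Rpl39l had no read in any of the 80 cells, and Rps12l1 had none in cells or bulk. Rpl3l was detected in 1 cell, Rps4l in 3 and Rpl32l in none. Pseudogene symbols took 5.59 reads for each 100 reads of the 80 genes in the summed cells and 1.99 in WT bulk. How reads with several matches were handled is not stated. Whether a count near 0 for a core protein reflects the level of its mRNA was not tested.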

How the data were processed

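Whole-number read counts per gene were deposited by the authors for the bulk libraries and for each cell, with no normalization; per the submitters' processing notes, HISAT and featureCounts of Subread 2.0.0 were used. The notes name builds mm9 and GRCm38 without roles; of 55471 gene IDs, 54900 had the GENCODE M21 (GRCm38) coordinates. Strand setting, multiple matches and molecular identifiers are not stated.

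The members and gene lists were chosen with earlier results of these data known. Genes needed 20 reads over the 3 bulk libraries. CPM were TMM-scaled (edgeR 4.0.16, R 4.3.3), with DESeq2 1.42.0 size factors and total reads as alternatives. Ratios carry exact conditional binomial 95% intervals; 0 reads were replaced by 3. A gene passed the size rule at 50 reads in the larger library, 2-fold, and an interval excluding 1. The length trend was the running median of 301 other protein-coding genes nearest in length. With 1 pooled library per genotype, no test of the spread between animals was made. Cells needed 500 genes and 10000 reads, and a gene 10 reads to be detected. Named genes were, for each comparison, the members past the size rule and the 5 highest and 5 lowest with 50 reads; the 5 highest and lowest levels and coefficients of variation; members chosen for their role or as paralogs; and from other lists those past the rule and the extremes. Values of 1 member by name are not reported here.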

Additional observations from a re-analysis of the deposited data

How the results depend on the processing

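No paired analysis was possible because each genotype has 1 library, and leaving out a library would leave no comparison. Over the alternatives run, 62 values stayed within their limits, 29 moved and 1 turned its sign. The median log2 ratio of the 80 genes kept its direction in the 3 bulk comparisons under each alternative run. Scaled by total reads, which shifts all log2 ratios by -0.11 in IL4RaY709F over WT, 0.13 in IL4Ra-/- over WT and -0.24 in IL4RaY709F over IL4Ra-/-, the summed log2 ratios were 0.14, -0.38 and 0.52. The genes past the size rule were then 0 higher, 2 lower (Fau and Rpl35a) and 7 higher, and the median between the mutants was 0.47. With DESeq2 size factors 3 genes were lower in IL4Ra-/- over WT, beside 70 lower and 160 higher among all genes. The summed log2 ratio of the 80 genes there was -0.50, and between the mutants it was 0.75. With the trend over exon length removed, the summed log2 ratios were 0.15, -0.42 and 0.58, with 0, 2 and 9 genes past the rule. With the trend over principal transcript length removed, they were 0.088, -0.41 and 0.53. Of the 72 genes with such a transcript 0, 2 and 5 then passed the rule, and the median between the mutants was 0.44. With either length trend removed, the share of all genes past the rule was not counted. At a 1.5-fold limit 2, 30 and 53 genes passed.

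In the cells, the summed share was 2.36% without mitochondrially encoded genes and 2.26% without the 12 cells over 20% mitochondrial or under 0.5% mast marker reads. The median log2 ratio of summed cells over WT bulk was 0.10 with TMM scaling, the sign that turned, where the median over all genes turned too, to 0.12, since the scaling shifts all genes alike. It was -0.40 with the exon length trend removed and -0.90 with the principal transcript trend removed. The principal transcript trend, the members without Rps19bp1 and Rpl7l1, and the cells without the 12 were chosen after seeing the data. Genes under 50 reads, such as Rpl21 in IL4Ra-/-, are limited by counting.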
